A study of Homo sapiens with 6 samples.

Results

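YAP1, WWTR1 and TEAD1 encode the nuclear effectors of the Hippo pathway, and the RNA contacts of QKI-5 across these 3 genes are described here. The members were the crosslinked positions on the sense strand of each gene's hg19 interval: YAP1 on chromosome 11, plus strand, 101981192 to 102104154 (122963 nt), WWTR1 on chromosome 3, minus strand, 149235022 to 149421060 (186039 nt), and TEAD1 on chromosome 11, plus strand, 12695969 to 12966284 (270316 nt). These intervals held 9558, 2276 and 3133 crosslinked positions in QKI-5 iCLIP replicates 1, 2 and 3, of 5239862, 1243745 and 1651104 positions in all. In control replicates 1, 2 and 3 they held 179, 41 and 35 positions of 105833, 25736 and 18372.

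All 6 libraries came from BEAS2B, a human airway epithelial cell line in long use, irradiated with UV at 150 mJ/cm2, which links proteins to the RNA they touch. In iCLIP (individual-nucleotide crosslinking and immunoprecipitation) the protein is pulled down and reverse transcription stops at the linked nucleotide, so that each cDNA end marks 1 crosslink event. The 3 QKI-5 iCLIP libraries used a self-made QKI-5 antibody, and the 3 control libraries are labelled as having no antibody. Nothing in the labels ties the replicates to separate cultures, and the spread between libraries may therefore be technical. Values of 3 libraries are given in the order of replicates 1, 2 and 3. The QKI-5 libraries held 2143279 to 7283982 events and the controls 29810 to 137926, so 1 event was worth 0.137 to 0.467 EPM (events per 1000000 events of a library) with antibody and 7.25 to 33.5 EPM without it. Markers of the cell type, the other genes of the pathway and the place of events in exons, introns or UTRs were not analysed here, because no hg19 annotation was used.

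The Hippo pathway is a kinase cascade that limits organ size. When it is active, LATS kinases phosphorylate the coactivators YAP (from YAP1) and TAZ (from WWTR1) and keep them in the cytoplasm. When it is inactive, the coactivators enter the nucleus and act through the DNA-binding TEAD proteins, of which TEAD1 is a member, and in airway epithelium YAP is known for its role in basal progenitor cells. QKI-5 is the nuclear form of Quaking, a STAR-family protein that binds short ACUAA-like elements and regulates splicing, so its contacts can fall in introns as well as exons.

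The first comparison asked how much of each library fell on the 3 genes with the antibody and without it. YAP1, a coactivator, had 402, 316 and 349 EPM in the QKI-5 libraries (2926, 677 and 1009 events), against 355, 409.9 and 201 EPM in the controls (49, 17 and 6 events). The groups overlapped, and both the highest and the lowest value belonged to controls. The means were 356 ± 43.3 EPM with antibody and 322 ± 108 EPM without it (SD, n = 3 each, two-sided exact permutation p = 0.9). In such libraries more RNA of a gene, in more cells or in each cell, and more protein bound per RNA cannot be told apart.

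WWTR1, which encodes the coactivator TAZ, had 252, 228 and 274 EPM in the QKI-5 libraries (1835, 489 and 792 events), against 203, 217 and 168 EPM in the controls (28, 9 and 5 events). Every QKI-5 library lay above every control, although all 3 QKI-5 values were within the 95% exact Poisson interval of each control (135 to 293, 99.2 to 412 and 54.5 to 391 EPM). The means were 251 ± 23.0 EPM with antibody and 196 ± 25.4 EPM without it (SD, n = 3 each, two-sided exact permutation p = 0.1, the smallest that 3 libraries against 3 allow).

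TEAD1, the DNA-binding partner, carried the most events of the 3 genes. It had 1148, 1150.1 and 1185 EPM in the QKI-5 libraries (8359, 2465 and 3425 events), against 892, 699 and 1107 EPM in the controls (123, 29 and 33 events). The QKI-5 libraries were close to each other and all lay above the controls, the nearest of which was control replicate 3. The 95% exact Poisson interval of control replicate 3 (762 to 1555 EPM) held all QKI-5 values. Those of controls 1 and 2 (741 to 1064 and 468 to 1004 EPM) lay below them. The means were 1161 ± 21.2 EPM with antibody and 899 ± 204 EPM without it (SD, n = 3 each, two-sided exact permutation p = 0.1). Pooled over libraries, the ratio of QKI-5 to control EPM was 1.31 for TEAD1 (95% exact interval 1.13 to 1.52), 1.26 for WWTR1 (0.930 to 1.75) and 1.09 for YAP1 (0.862 to 1.39). These intervals cover counting error only and leave out the spread between libraries. Even for counting error they may be too narrow, since copies of 1 cDNA made by PCR may be counted as separate events.

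**Figure D1:**
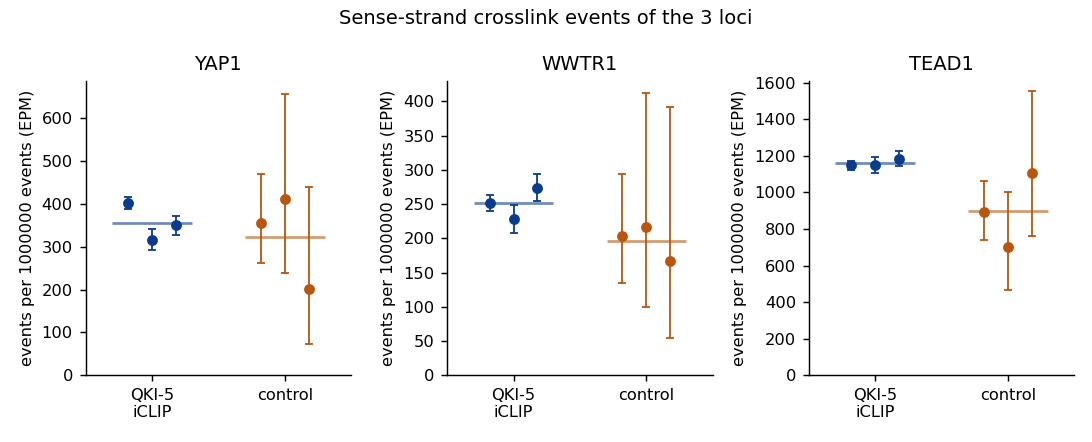
Sense-strand events of YAP1, WWTR1 and TEAD1 in EPM (linear vertical axes from 0), with 1 point per library in replicate order, 95% exact Poisson intervals and the group mean as a bar. The TEAD1 values of the QKI-5 libraries lie between 1148 and 1185 EPM, while the control intervals are several times wider than those of the QKI-5 libraries.

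In the fit over all strand-specific 10 kb windows, to which the 3 loci were added, none of the loci passed the test. The log2 fold change, QKI-5 over control, was 0.72 for YAP1 (SE 0.50, adjusted p = 0.462 by edgeR), 0.96 for WWTR1 (SE 0.50, adjusted p = 0.292) and 1.09 for TEAD1 (SE 0.60, adjusted p = 0.323). All 29960 windows tested had a median of 0.78 on this scale, which carries the TMM factors, and the difference from that median was -0.065 for YAP1, 0.18 for WWTR1 and 0.31 for TEAD1. Scaled by library totals, as EPM is, the log2 fold changes were 0.09, 0.33 and 0.38 beside a median of 0.22. Without the filter on low counts all 3 loci lay below the median of all windows, with differences of -0.46, -0.22 and -0.088. Without control replicate 1 all 3 loci passed, at log2 fold changes of 1.67, 1.88 and 1.94 (adjusted p = 0.0487, 0.0392 and 0.0151 by edgeR), in a fit of 52140 windows whose own median was 6.69. In that fit the WWTR1 windows from 149320001 and 149360001, without events in control replicates 2 and 3, had 9.18 and 8.97. With all libraries they had 2.14 and 0.63. The share of such windows in that fit was not counted. Differences from its median therefore do not rank a locus against a typical window. Without QKI-5 replicate 1, 2 or 3 the log2 fold changes were 0.06, 0.11 and 0.06 for YAP1, 0.40, 0.33 and 0.21 for WWTR1, and 0.49, 0.37 and 0.35 for TEAD1, beside medians of 0.25, 0.32 and 0.27, so that WWTR1 lay below the median without replicate 3.

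Per length of the gene, TEAD1 was the most densely crosslinked. It held 4.30 ± 0.0784 EPM per kb in QKI-5 libraries and 3.33 ± 0.755 EPM per kb in controls (SD, n = 3 each). YAP1 held 2.89 ± 0.352 EPM per kb in QKI-5 libraries and 2.62 ± 0.880 in controls, and WWTR1 1.35 ± 0.124 in QKI-5 libraries and 1.05 ± 0.136 in controls. Within a library, the density of TEAD1 over that of YAP1 was 1.30, 1.66 and 1.54 in the QKI-5 libraries, against 1.14, 0.776 and 2.50 in the controls. The order TEAD1, YAP1, WWTR1 was the same in all 3 QKI-5 libraries and in 2 of the 3 controls, while YAP1 was the densest in control replicate 2. The ratios of the genes to each other overlapped between the groups (two-sided exact permutation p = 1.0 for TEAD1 over YAP1, 0.9 for TEAD1 over WWTR1 and 0.5 for YAP1 over WWTR1).

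The events followed the transcribed strand. On YAP1, 99.7, 99.9 and 100% of the events of the QKI-5 libraries lay on the sense strand, against 100% of the 49, 17 and 6 control events. On WWTR1 the shares were 99.7, 99.8 and 99.9% in QKI-5 libraries, against 100% in each control. On TEAD1 they were 99.4, 99.6 and 99.3% in QKI-5 libraries, against 98.4, 100 and 97.1% in controls. Antisense events numbered 9 on YAP1, 8 on WWTR1 and 83 on TEAD1 over the QKI-5 libraries, and 0, 0 and 3 over the controls. The exact permutation test gave two-sided p = 0.4, 0.1 and 0.4 for the sense share of YAP1, WWTR1 and TEAD1, and the control shares of YAP1 and WWTR1 rest on too few events for an antisense share of this size to be seen.

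At the 5′ ends the signal was bounded by the gene. The first 5 kb of YAP1 held 108 events over the QKI-5 libraries and the 5 kb upstream of it held 1, and for TEAD1 these counts were 259 and 0. At the 3′ ends the last 5 kb held 186 events on YAP1, 97 on WWTR1 and 393 on TEAD1, and the 5 kb downstream held 33, 13 and 33. No control had an event in any of these flanks. The controls held 72, 42 and 185 events on the whole of YAP1, WWTR1 and TEAD1, against 4612, 3116 and 14249 in the QKI-5 libraries. That is too few for flank events at the QKI-5 rate to be seen, so the groups cannot be compared there.

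WWTR1 departed from this at its 5′ end. RefSeq lists 2 start regions for the gene on GRCh38.p14, 45248 nt apart. The 250 bases before each are shown because few events lay before the second one, with the letters in the direction of transcription and CG dinucleotides in capitals. The upstream region is chr3:149703274-149703523, minus strand, and the downstream region is chr3:149658026-149658275, minus strand.
WWTR1 upstream start: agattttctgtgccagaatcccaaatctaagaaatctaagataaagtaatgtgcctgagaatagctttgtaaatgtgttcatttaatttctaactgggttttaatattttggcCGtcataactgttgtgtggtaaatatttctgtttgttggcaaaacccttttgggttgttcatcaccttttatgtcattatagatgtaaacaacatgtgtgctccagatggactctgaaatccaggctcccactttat
WWTR1 downstream start: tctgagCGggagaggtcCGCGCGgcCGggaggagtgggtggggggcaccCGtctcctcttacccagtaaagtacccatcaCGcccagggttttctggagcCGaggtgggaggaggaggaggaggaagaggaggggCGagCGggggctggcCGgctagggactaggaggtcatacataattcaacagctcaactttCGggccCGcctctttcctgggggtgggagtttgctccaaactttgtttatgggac
The upstream region had 1 CG and a G+C content of 35.2%, and the downstream region had 13 CG and 62.0%. Of the 35116 promoter regions in the RefSeq table, 6.06% had fewer CG than the upstream region and 53.4% had fewer than the downstream region.

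The distance between the starts was laid onto the hg19 interval from its 5′ end, which takes the interval to begin at the upstream start and the builds to hold the same number of bases between the starts. The 45248 nt before the downstream start held 18, 0 and 5 events in the QKI-5 libraries, or 0.981% (95% exact binomial interval 0.582 to 1.55), 0% (0 to 0.752) and 0.631% (0.205 to 1.47) of the locus. The next stretch of the same length held 776, 204 and 329 events. In EPM per kb the density was 0.0546, 0 and 0.0382 before the downstream start, and 2.35, 2.10 and 2.52 in the next stretch. The first QKI-5 position after the downstream start lay 48 nt beyond it. In the 2 kb before that start the QKI-5 libraries held 2, 0 and 0 events, and in the 2 kb after it 19, 6 and 15. The controls had 0 of 42 events before the downstream start, which allows a share of up to 7.14%, and 16, 3 and 2 events in the next stretch. The longest stretch of WWTR1 without any QKI-5 event was 11686 nt and lay in this part, beginning 26811 nt from the 5′ end, while the longest gaps on YAP1 and TEAD1 were 498 and 1029 nt.

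**Figure D2:**
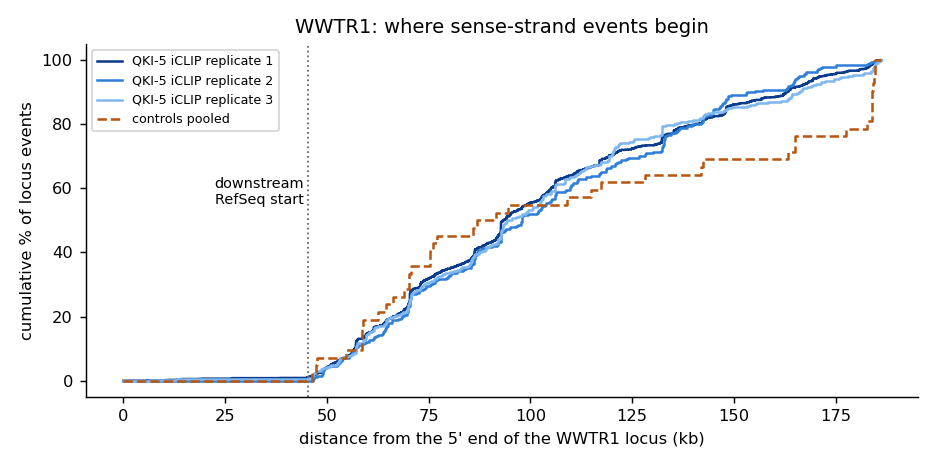
Cumulative share of the sense-strand events of WWTR1 (vertical axis, percent of each library's locus events) against distance from the 5′ end of the locus in kb, for the 3 QKI-5 libraries and the pooled controls (42 events). The dotted line marks the downstream RefSeq start at 45.2 kb, before which the QKI-5 libraries hold 0 to 0.981% of their events.

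Beyond these ends, events ran along the whole length of the genes. None of the 122 full 1 kb bins of YAP1 and none of the 270 of TEAD1 lacked a QKI-5 event, while 36 of the 186 of WWTR1 did. Counts per 1 kb bin correlated between pairs of QKI-5 libraries with a Pearson r of 0.559 to 0.781 on YAP1, 0.690 to 0.804 on WWTR1 and 0.956 to 0.964 on TEAD1. Spearman correlations, which use ranks, were 0.418 to 0.624 on YAP1, 0.692 to 0.809 on WWTR1 and 0.655 to 0.743 on TEAD1. By rank TEAD1 therefore did not exceed WWTR1. Both coefficients are descriptions across bins of the same genes, whose points share their libraries, depth and base composition. Single positions repeated far less. Of 3106 YAP1 positions seen in any QKI-5 library, 15 were seen in all 3, and for WWTR1 and TEAD1 these counts were 7 of 2199 and 105 of 8543.

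Cut into 20 equal parts from the 5′ end, YAP1 had its largest mean share in the 16th, with 11.1, 7.83 and 12.4% of the events of the QKI-5 libraries, against 8.16, 5.88 and 16.7% in the controls. On WWTR1 it was the 10th, with 12.9, 11.5 and 11.6% in the QKI-5 libraries, against 7.14, 11.1 and 0% in the controls. On TEAD1 it was the 15th, with 22.9, 25.03 and 24.1% in the QKI-5 libraries, against 17.9, 10.3 and 33.3% in the controls, and the groups overlapped in this part on YAP1 and TEAD1.

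**Figure D3:**
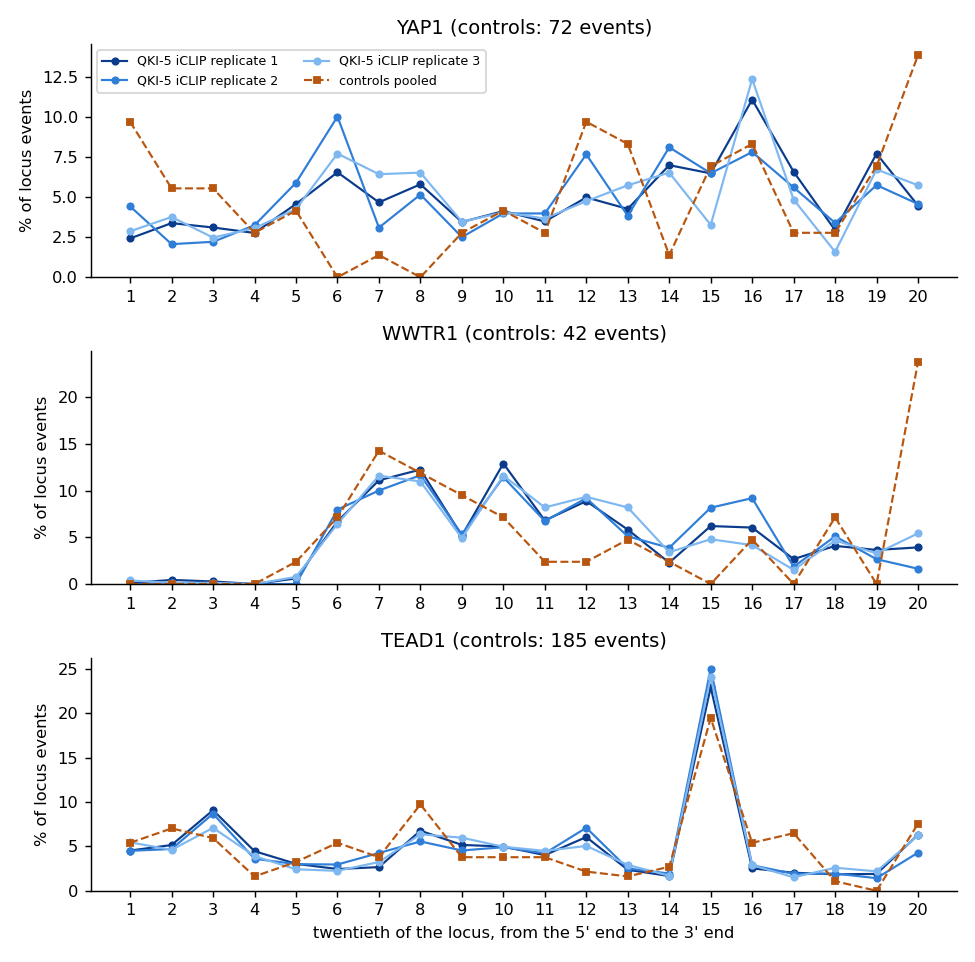
Share of each gene's sense-strand events (vertical axes, percent) in twentieths from the 5′ to the 3′ end, for the 3 QKI-5 libraries and for the pooled controls (72, 42 and 185 events). The QKI-5 lines of TEAD1 peak together at 22.9 to 25.03% in the 15th twentieth, and the first 4 twentieths of WWTR1 are nearly empty.

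The second comparison read the 10 kb windows of the 3 genes, and of all windows tested 0.761% were called higher and 0.107% lower in QKI-5 iCLIP (adjusted p under 0.05 by edgeR). The genes spanned 61 sense-strand windows, of which 6 reached beyond a gene's end, and 52 passed the filter on low counts. Of these 52, 2 were called higher and 0 lower (3.85% called), while 11 (21.2%) were higher and 1 (1.92%) was lower at an unadjusted p under 0.05 (edgeR). Of all windows tested, 5235 (17.5%) were higher and 287 (0.958%) lower at that unadjusted p, so the shares in the 3 genes were near the background. Their median log2 fold change was 0.98, against 0.78 for all 29960 windows. The untested windows were 8 of WWTR1, 5 of which lay before the downstream start, and 1 of TEAD1. Scaled by library totals, 25 of all windows were called higher and 58 lower, against 228 and 32 with TMM factors.

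The median over all windows tested was 16.4 EPM of mean QKI-5 level, a median that leaves out windows under the filter. Above it lay 11 of the 11 full windows of YAP1, 8 of the 18 of WWTR1 and 24 of the 26 of TEAD1.

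Both called windows had 0 events in each control, so they passed the filter on low counts through the QKI-5 libraries alone, the group in which they are higher. On YAP1, 102010001 to 102020000 held 42.7, 42.9 and 44.3 EPM in the QKI-5 libraries (adjusted p = 0.0304 by edgeR). It would be 3.01-fold higher than the controls if these together were granted 3 events. On TEAD1, 12740001 to 12750000 held 38.7, 32.2 and 35.0 EPM (adjusted p = 0.0480 by edgeR) and would be 2.56-fold higher. These ratios are no lower bounds, because the windows were picked by a call that rests on 0 control events. The YAP1 call was lost with DESeq2 size factors, with library totals and without control replicate 2 (adjusted p = 0.0534, 0.110 and 0.101 by edgeR). The TEAD1 call was lost there too, at adjusted p = 0.0826, 0.157 and 0.149, as well as without control replicate 1 or 3, at 0.0590 and 0.0643, and with distinct positions, at 0.0763 (edgeR). Neither window was tested in the fits that left out a QKI-5 library (replicate 1, 2 or 3), whose filter kept 892, 951 and 937 windows, and on a grid shifted by 5 kb no window of the 3 genes was called.

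The strongest window of YAP1 was 102070001 to 102080000, with 63.0, 39.7 and 49.8 EPM in the QKI-5 libraries, against 43.5, 24.1 and 33.5 EPM in the controls. The groups overlapped (log2 fold change 1.00, SE 0.66, adjusted p = 0.431 by edgeR). Its weakest full window, 101990001 to 102000000 near the 5′ end, averaged 17.6 ± 6.80 EPM in QKI-5 libraries, against 45.7 ± 22.8 EPM in controls (SD, n = 3 each), the reverse order (log2 fold change -0.33, adjusted p = 0.850 by edgeR), from 7 control events. Its difference from the median of all windows was -1.11. The log2 fold change was 0.053 without control replicate 3 and 0.17 without the filter on low counts, where the differences from the median were -0.88 and -1.48. In the third strongest window, 102060001 to 102070000, the QKI-5 libraries averaged 37.6 ± 5.16 EPM against 15.3 ± 13.3 EPM in controls (SD, n = 3 each) from 4 control events, and it did not pass (adjusted p = 0.288 by edgeR).

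The strongest window of WWTR1 was 149350001 to 149360000, with 32.9, 33.1 and 32.9 EPM in the QKI-5 libraries, against 29.0, 24.1 and 67.1 EPM in the controls. Control replicate 3 was the highest of the 6, from 2 events (log2 fold change 0.54, adjusted p = 0.726 by edgeR). With library totals its log2 fold change was -0.036, and its difference from the median of all windows was -0.26 there and -0.24 with TMM factors. The next windows were 149320001 to 149330000, with 28.3 ± 5.17 EPM in QKI-5 libraries against 4.83 ± 8.37 EPM in controls, and 149360001 to 149370000, with 24.6 ± 5.47 EPM in QKI-5 libraries against 12.1 ± 20.9 EPM in controls (SD, n = 3 each). Both had control events in replicate 1 alone, and neither passed (adjusted p = 0.219 and 0.712 by edgeR). The weakest full window, 149380001 to 149390000, lay before the downstream start and held 1 event in QKI-5 replicate 1 and no other event.

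On TEAD1 the window 12880001 to 12890000 held 199, 232 and 205 EPM in the QKI-5 libraries (1453, 498 and 593 events), against 79.8, 72.3 and 235 EPM in the controls (11, 3 and 7 events). Controls 1 and 2 lay below all QKI-5 libraries and control replicate 3 above them. The log2 fold change was 1.65 (SE 0.55, adjusted p = 0.105 by edgeR), and the window passed without control replicate 1 (adjusted p = 0.0290 by edgeR) and by the DESeq2 Wald test (adjusted p = 0.0123). Without control replicate 1 its log2 fold change was 2.13, at a difference of -4.57 from that fit's median of 6.69. As for the loci, this difference does not rank the window against a typical one. The window had a smaller log2 fold change and did not pass with library totals (1.00, adjusted p = 0.374 by edgeR) or with distinct positions (0.85, adjusted p = 0.477). Leaving out QKI-5 replicate 1, 2 or 3 gave 1.04, 0.84 and 0.91 (adjusted p = 0.365, 0.249 and 0.327 by edgeR). The difference from the median of all windows was 0.87 in the main fit, 0.78 with library totals and 0.26 with distinct positions. Without QKI-5 replicate 1, 2 or 3 this difference was 0.78, 0.52 and 0.64. Only 78 of the 29960 tested windows had a higher mean EPM in QKI-5 libraries. The window took 17.4, 20.2 and 17.3% of the TEAD1 events of the QKI-5 libraries, against 8.94, 10.3 and 21.2% in the controls.

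Its neighbour 12890001 to 12900000 held 92.6 ± 13.7 EPM in QKI-5 libraries against 91.4 ± 59.0 EPM in controls (SD, n = 3 each), and its log2 fold change lay below the median of all windows in each fit. It was 0.50 with TMM factors, -0.078 with library totals, and -0.16 and -0.32 with QKI-5 replicate 2 or 3 left out, at differences from the median of -0.29, -0.30, -0.47 and -0.59. The third strongest TEAD1 window, 12730001 to 12740000, held 91.6, 86.3 and 77.5 EPM in the QKI-5 libraries, against 65.3, 24.1 and 0 EPM in the controls. All QKI-5 libraries lay above the controls (log2 fold change 1.44, SE 0.62, adjusted p = 0.182 by edgeR), and without control replicate 1 it passed at an adjusted p of 0.0184 (edgeR). In that fit its log2 fold change was 4.12, at a difference of -2.58 from the fit's median of 6.69, with the same limit on reading that difference. With library totals the window's log2 fold change was 0.89 (adjusted p = 0.570 by edgeR), and leaving out QKI-5 replicate 1, 2 or 3 gave 0.86, 0.71 and 0.81 (adjusted p = 0.449, 0.353 and 0.363). Its difference from the median of all windows was 0.66 in the main fit and 0.67 with library totals. Without QKI-5 replicate 1, 2 or 3 this difference was 0.61, 0.39 and 0.54. The weakest full window, 12870001 to 12880000, directly precedes the strongest one and averaged 7.69 ± 0.5997 EPM in QKI-5 libraries, against 33.5 ± 58.1 EPM in controls (SD, n = 3 each), from 3 events of control replicate 3.

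At finer scale, the 5 strongest 50 nt bins of TEAD1, ranked by their lowest EPM over the QKI-5 libraries and described without a test, all fell between 12886569 and 12887718. This stretch of 1150 nt is 0.425% of the gene and held 922, 308 and 337 events in the QKI-5 libraries, or 11.03, 12.5 and 9.84% of the gene's events. In the controls it held 4, 1 and 6 events, or 3.25% (95% exact binomial interval 0.893 to 8.12), 3.45% (0.0873 to 17.8) and 18.2% (6.98 to 35.5). Control replicate 3 thus lay above the QKI-5 libraries and the other controls below them. The strongest bin, 12886719 to 12886768, held 17.8, 25.2 and 20.8 EPM in the QKI-5 libraries and 2 control events. With distinct positions the strongest bin was another of the 5, 12887669 to 12887718. The bins 12887669 to 12887718 and 12887519 to 12887568 held 11.8 ± 0.408 and 11.8 ± 1.78 EPM in the QKI-5 libraries (SD, n = 3), with 2 events of control replicate 3 in the second of them. The other 2, 12886869 to 12886918 and 12886569 to 12886618, varied more, with 7.41, 13.1 and 15.9 EPM and with 14.0, 11.2 and 6.92 EPM in the QKI-5 libraries. The single position of the 3 genes with the highest lowest EPM over the QKI-5 libraries was 12887544. It held 32, 9 and 8 events in the QKI-5 libraries and none in controls, while another TEAD1 position held 15 in QKI-5 replicate 3. Its neighbour 12887545 held 19, 8 and 5 (single positions were chosen after their values were seen).

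**Figure D4:**
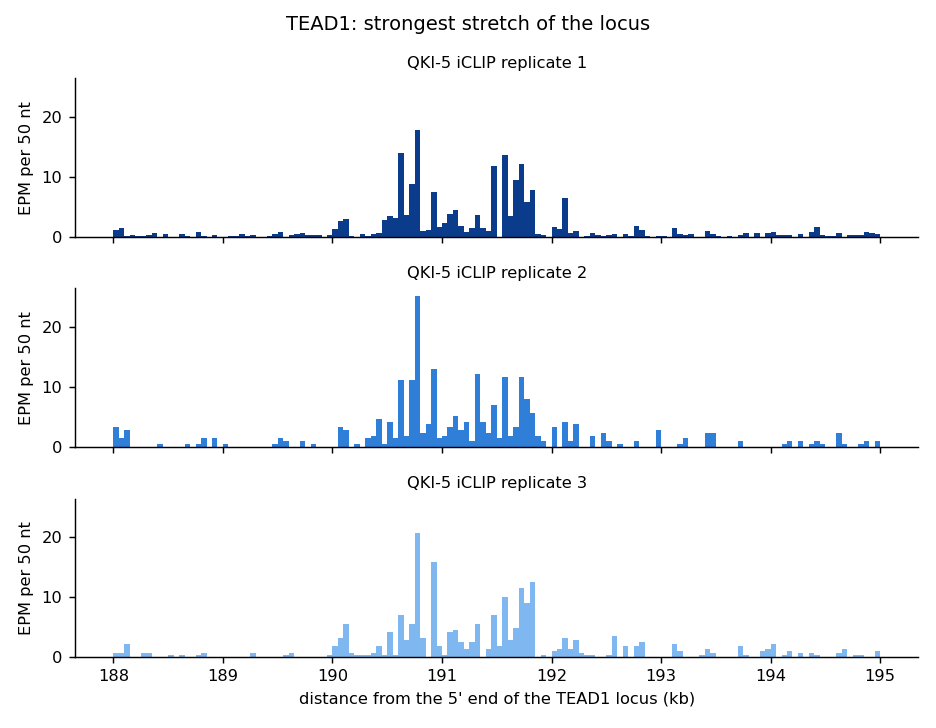
QKI-5 events around the strongest stretch of TEAD1 in EPM per 50 nt (vertical axes) against distance from the 5′ end of the gene in kb, 1 panel per QKI-5 library on a common scale. In each library the tallest bar, 17.8, 25.2 and 20.8 EPM, is the same bin at 190.75 kb, counted in events.

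On WWTR1 the bin 149328261 to 149328310 held 6.04, 5.13 and 5.88 EPM in the QKI-5 libraries (44, 11 and 17 events) and no control event. With bins shifted by 25 nt the strongest bin overlapped it, and its lowest value was 2.80 EPM against 5.13 EPM as counted here. The second bin, 149363861 to 149363910, held 1.37, 1.87 and 3.12 EPM, and the other 3 (149288711 to 149288760, 149257111 to 149257160 and 149359511 to 149359560) averaged 2.76, 1.58 and 1.55 EPM over the QKI-5 libraries. The single position with the highest lowest EPM was 149304073, with 10, 2 and 2 events in the QKI-5 libraries, outside the named bins.

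On YAP1 the strongest bins were scattered over the gene, and which was first changed with the setting: bins shifted by 25 nt put first the bin 114675 nt from the 5′ end, and distinct positions the bin 44300 nt from it. The bin 102017392 to 102017441 held 4.39, 5.599 and 4.15 EPM in the QKI-5 libraries and lies in the called window. The bin 102095892 to 102095941 held 3.84, 4.67 and 3.46 EPM. The bins 102025492 to 102025541 and 102071842 to 102071891 varied more between libraries, with 9.61, 4.67 and 3.12 EPM and with 6.32, 7.47 and 2.08 EPM, and the fifth, 102064242 to 102064291, held 1.65, 2.33 and 2.77 EPM. No control event fell in the named bins of YAP1 or WWTR1, where 3 events over the pooled controls would be 14.3 EPM, above every value of these bins, so an excess over the controls was not detectable there. The 5 named bins together took 4.46 to 7.83% of YAP1 events, 4.63 to 6.82% of WWTR1 events and 5.49 to 6.33% of TEAD1 events in the QKI-5 libraries.

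The third comparison asked how much of each gene's signal lay in the last 10% of its length, which holds the 3′ end of the transcript. On YAP1 it took 12.2, 10.3 and 12.5% of the events of the QKI-5 libraries, against 20.4, 23.5 and 16.7% in the controls. The QKI-5 libraries all lay below the controls, with means of 11.7 ± 1.17% in QKI-5 libraries and 20.2 ± 3.44% in controls (SD, n = 3 each, two-sided exact permutation p = 0.1). The control shares rest on 10, 4 and 1 events.

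On WWTR1 the last 10% of the length took 7.57, 4.29 and 8.71% of the events of the QKI-5 libraries, against 21.4, 22.2 and 40% in the controls, from 6, 2 and 2 control events. The groups were again apart, at 6.86 ± 2.29% in QKI-5 libraries and 27.9 ± 10.5% in controls (SD, n = 3 each, two-sided exact permutation p = 0.1). Counting each position once kept the groups apart on both genes, at 11.7 ± 1.36% in QKI-5 libraries against 20.9 ± 3.70% in controls on YAP1, and 7.37 ± 1.87% in QKI-5 libraries against 31.7 ± 16.1% in controls on WWTR1. The 10 kb window that spans the 3′ end of WWTR1, 149230001 to 149240000, held 8.65, 3.27 and 13.8 EPM in the QKI-5 libraries, against 43.5, 24.1 and 67.1 EPM in the controls from 9 events. The groups were apart, but the window was not called (log2 fold change -1.71, SE 0.71, adjusted p = 0.171 by edgeR), and it was named after its values were seen. The matching window of YAP1, 102100001 to 102110000, held 15.9, 10.7 and 18.7 EPM in the QKI-5 libraries, against 43.5, 72.3 and 0 EPM in the controls, and the groups overlapped (log2 fold change -0.91, SE 0.69, adjusted p = 0.495 by edgeR). That of TEAD1, 12960001 to 12970000, held 46.0, 30.3 and 49.5 EPM in the QKI-5 libraries, against 36.3, 72.3 and 33.5 EPM in the controls, and the groups overlapped (log2 fold change 0.54, adjusted p = 0.702 by edgeR).

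TEAD1 did not share this order. The last 10% of its length took 8.22, 5.72 and 8.44% of the events of the QKI-5 libraries, against 8.13, 10.3 and 3.03% in the controls, and the groups overlapped (means 7.46 ± 1.51% in QKI-5 libraries and 7.17 ± 3.75% in controls, SD, n = 3 each, two-sided exact permutation p = 0.8). Whether the genes differ in this was not tested. The controls also differed from the QKI-5 libraries in depth, and the part of depth in these shares was not tested.

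**Figure D5:**
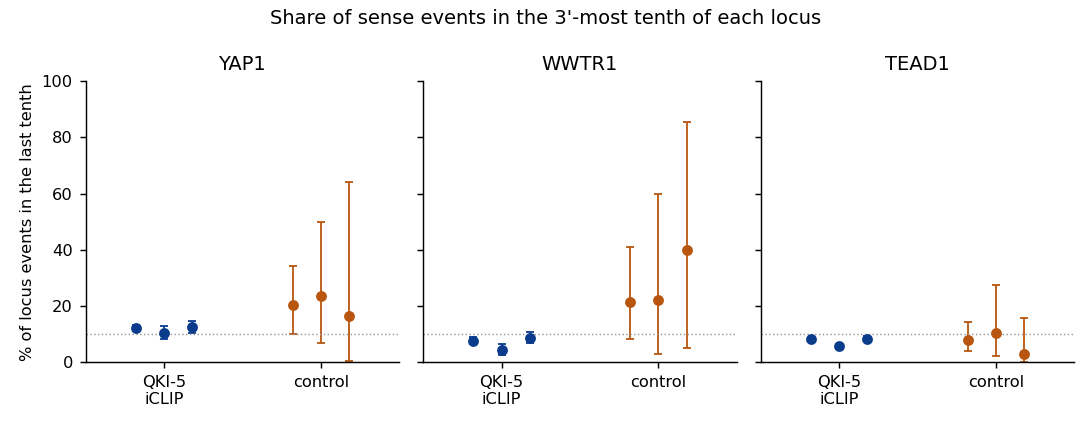
Percent of each gene's sense-strand events in the last 10% of its interval, 1 point per library in replicate order with 95% exact binomial intervals. The dotted line at 10% is the share of an even spread over the whole interval, although the 5′ part of WWTR1 is nearly empty. The QKI-5 points lie at 10.3 to 12.5% on YAP1 and 4.29 to 8.71% on WWTR1, below the control points, whose intervals are wide, while the groups overlap on TEAD1.

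Repeated events at 1 position were counted as deposited. On YAP1, 19.9, 37.2 and 42.7% of positions held more than 1 event in the QKI-5 libraries, against 8.89, 33.3 and 20% in the controls. On TEAD1 the shares were 24.7, 40.7 and 43.4% in the QKI-5 libraries and 11.9, 28.6 and 19.2% in controls. The deepest QKI-5 library, replicate 1, had the lowest share of the QKI-5 libraries on both genes and on WWTR1, where the shares were 16.8, 37.1 and 41.0%. On TEAD1 events per position averaged 1.59 ± 0.136 in QKI-5 libraries and 1.26 ± 0.127 in controls (SD, n = 3 each).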

How the data were processed

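The deposited counts are crosslink events per nucleotide and strand, made by the authors from iCLIP reads and given as 1 table per library on hg19; cutadapt and Bowtie are named in the submitters' processing notes without versions, and no source used here gives how PCR copies were collapsed. Events were summed over the 3 gene intervals and over strand-specific windows of 10 kb. EPM divides events by the library total. edgeR 4.0.16 (R 4.3.3) tested the windows and loci with the quasi-likelihood F test, TMM factors, filterByExpr and the group as the only term, and p-values were Benjamini-Hochberg adjusted over all rows at 0.05. The filter was not applied to the loci. The SE of a log2 fold change was taken from its F statistic. The fit was tested on simulated data in which only windows of higher EPM than the called windows of the 3 genes were changed. That test does not cover these calls. Single values were compared by exact permutation tests of 3 libraries against 3, without adjustment. These were run on more measures than are given here, and 12 of them are printed. Binomial and Poisson intervals are exact, at 95%. DESeq2 1.42.0, other scalings, no filter, distinct positions, a shifted grid, a replicate block and leaving out each library were tried as alternatives. The named windows were the 3 highest and the lowest full window of each gene by mean QKI-5 EPM and every called window, and the named bins were the 5 with the highest lowest QKI-5 EPM. The members, lists and rules were chosen with earlier results of these data known. Promoter sequences are RefSeq's on GRCh38.p14: WWTR1 had 2 entries and YAP1 had 1, while TEAD1 had no match. The labels do not state whether replicate numbers pair the libraries, and the main fit did not pair them. The treatment protocol in the labels describes an antibody for all samples, while the antibody label of the controls reads none.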

Additional observations from a re-analysis of the deposited data

How the results depend on the processing

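The controls limit every contrast, since 1 of their events is worth 7.25 to 33.5 EPM and their loci hold 5 to 123 events. The log2 fold changes of the loci were above 0 under each alternative tried, as was the median of all windows. Against that median YAP1 was above it only with the replicate block and without control replicate 2 (differences of 0.040 and 0.015). WWTR1 was below it with no filter, with QKI-5 replicate 3 left out and with control replicate 1 left out (-0.22, -0.063 and -4.81), and TEAD1 with no filter and with control replicate 1 left out (-0.088 and -4.75). The differences without control replicate 1 do not rank a locus against a typical window, as stated above. Leaving out 1 library gave 0.056 to 1.67 for YAP1, 0.21 to 1.88 for WWTR1 and 0.35 to 1.94 for TEAD1, and the highest value of each, without control replicate 1, passed the threshold. Of all windows, 85 were called higher with DESeq2 size factors, 25 with library totals, 27 with distinct positions and 31 to 859 when 1 library was left out. Lower calls numbered 58 with library totals, 6 without the filter, 67 with distinct positions, 130 by DESeq2 and 9 to 90 when 1 library was left out. The windows tested numbered 29960 with DESeq2 size factors, library totals or DESeq2, 20702 with distinct positions and 174732 without the filter. With 1 library left out they numbered 892 to 54850, so counts of calls cannot be compared directly between these fits. Windows of the 3 genes called higher numbered 0 with DESeq2 size factors, library totals or a shifted grid, 1 with distinct positions, 3 by DESeq2, and 0 to 3 when 1 library was left out. Without a QKI-5 library the count was 0, but the called YAP1 and TEAD1 windows were not tested in those fits. With the replicate block edgeR called 0 windows higher and 0 lower over all windows, and 0 in the 3 genes, with 2195 windows at an unadjusted p under 0.05, and the loci had log2 fold changes of 0.95, 1.12 and 1.22. Whether the numbers pair the libraries is not known. Same-numbered libraries correlated in their deviations at -0.003, 0.102 and 0.075. QKI-5 replicates 2 and 3 correlated best with the same-numbered control, and replicate 1 with control replicate 3 (0.058). With so few events in the controls, these correlations cannot decide it. The last 10 kb in place of the last 10% of the length held 3.77% on WWTR1 and 5.30% on TEAD1 in QKI-5 libraries. In controls it held 27.9% and 6.36%, and the groups stayed apart on WWTR1 and overlapped on TEAD1. The last 10% is the longer stretch, at 18603 nt on WWTR1 and 27031 nt on TEAD1, so part of the smaller share goes with length. The lowest QKI-5 EPM of the strongest bin was 6.32 on YAP1 and 26.3 on TEAD1 in bins of 100 nt, 2.80 on WWTR1 in shifted bins, and with distinct positions (per 1000000 positions) 3.05 on WWTR1 and 6.49 on TEAD1, where another bin was then the strongest. The log2 fold change of the weakest YAP1 window was 0.17 without the filter and -0.10 to 0.053 over the fits that left out 1 control. That of the strongest WWTR1 window was -0.036 with library totals. That of the TEAD1 window from 12890001 was -0.078 with library totals and -0.32 to 1.92 when 1 library was left out. The causes were not tested. Alternatives chosen after seeing the data were WWTR1 from its downstream start, at a log2 fold change of 0.95, and TEAD1 without its strongest window, at 0.98.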
